A study of Mus musculus with 5 samples.

Results

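The genes described here are 40 cell cycle and DNA replication genes measured in peritoneal cells of mice 2 h after an injection into the peritoneal cavity. They were chosen by name: 25 act in mitosis (the mitotic members) and 15 in DNA replication or the supply of its precursors (the replication members), of 20145 genes named on the array. All 40 were found, through 50 probes. Female BALB/c mice had received 50 µg AEPS (a root polysaccharide of Actinidia eriantha, a relative of kiwifruit), 25 µg OVA (ovalbumin, a model protein antigen), 25 µg OVA with 50 µg AEPS, 25 µg OVA with 200 µg of the adjuvant alum, an aluminium salt, or PBS, the buffer given alone. The cells washed out of the cavity were not sorted, and the labels give neither the age of the mice nor whether several mice were pooled for an array. Each injection is represented by 1 single-colour Agilent array. No difference below therefore has a replicate check, no test between groups was possible, and higher and lower describe these arrays only.

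A cell prepares to copy its DNA by loading the MCM helicase onto replication origins in G1, copies it in S phase with PCNA as the sliding clamp, and separates the copies in mitosis under cyclin B, CDK1, Polo-like and Aurora kinases. E2F factors drive many of the replication genes. The mitotic genes are switched on later, through promoter elements called CHR (TTTGAA) and CCAAT, which are bound by the DREAM and MuvB complexes and by NF-Y. Resident peritoneal macrophages are known to renew themselves by division in the cavity, whereas mature neutrophils, which enter it within hours of an irritant, do not divide.

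The promoters show the difference between the groups of members in their letters. RefSeq promoter windows of 300 bases (250 before to 50 after the gene start, GRCm38.p6) were matched for 34 of the 40 members, 21 mitotic and 13 replication; Ccna2, Tpx2, Kif20a, Aurkb, Mcm4 and Gmnn had no entry in the table. The motifs were searched as exact letters on both strands. TTTGAA was held by 15 of 21 mitotic windows (71.4%) and 1 of 13 replication windows (7.69%), that of Mcm2, against 20.2% of the windows of 27025 genes. CCAAT was held by 17 mitotic windows (81%) and 8 replication windows (61.5%), against 41.1% of all genes. Any of the E2F-type letters TTTGGCGC, TTTCGCGC, TTTCCCGC and TTTGCCGC, some of which overlap each other on opposite strands, stood in 6 replication windows (46.2%: Mcm3, Mcm5, Mcm6, Mcm7, Cdc6 and Cdt1) and 1 mitotic window (4.76%, Cdk1), against 2.6% of all genes. The median GC content was 58.7% for mitotic, 57.7% for replication and 52.8% for all windows, so base composition differs too. A match is a description of the letters, not of binding.

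The promoters of 6 genes are printed below, chosen after the motif search: Mki67, Cdk1 and Cdc20 for the mitotic layout and Mcm5, Mcm6 and Cdc6 for the replication layout. Each is the 160 bases before the gene start, 5′ to 3′ on the gene's strand, with every searched motif, or its reverse complement, in capitals. Mki67 lies at chr7:135716380-135716539 on the minus strand, Cdk1 at chr10:69352913-69353072 on the minus strand and Cdc20 at chr4:118437344-118437503 on the minus strand. Mcm5 lies at chr8:75109349-75109508 on the plus strand, Mcm6 at chr1:128359706-128359865 on the minus strand and Cdc6 at chr11:98907991-98908150 on the plus strand.
Mki67: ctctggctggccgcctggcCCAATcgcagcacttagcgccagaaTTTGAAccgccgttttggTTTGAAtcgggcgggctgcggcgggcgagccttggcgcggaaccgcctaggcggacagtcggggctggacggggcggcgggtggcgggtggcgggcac
Cdk1: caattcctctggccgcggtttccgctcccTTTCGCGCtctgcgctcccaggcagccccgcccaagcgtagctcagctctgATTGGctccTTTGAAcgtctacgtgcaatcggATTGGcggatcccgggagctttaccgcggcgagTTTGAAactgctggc
Cdc20: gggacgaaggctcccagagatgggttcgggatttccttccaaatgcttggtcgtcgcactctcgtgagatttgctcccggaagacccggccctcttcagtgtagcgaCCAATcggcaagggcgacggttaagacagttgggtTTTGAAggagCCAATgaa
Mcm5: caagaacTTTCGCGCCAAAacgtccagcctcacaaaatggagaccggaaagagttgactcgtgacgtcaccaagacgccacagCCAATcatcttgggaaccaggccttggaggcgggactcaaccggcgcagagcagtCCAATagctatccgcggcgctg
Mcm6: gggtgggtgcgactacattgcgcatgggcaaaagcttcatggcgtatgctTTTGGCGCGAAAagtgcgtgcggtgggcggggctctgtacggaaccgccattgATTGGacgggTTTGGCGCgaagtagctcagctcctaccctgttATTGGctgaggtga
Cdc6: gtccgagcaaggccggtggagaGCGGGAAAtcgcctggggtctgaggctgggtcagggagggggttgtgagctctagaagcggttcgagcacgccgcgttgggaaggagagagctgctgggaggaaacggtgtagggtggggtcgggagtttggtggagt
Mki67 and Cdc20 carry TTTGAA and CCAAT and no E2F-type letters, and Cdk1 carries all 3 kinds. In Mcm5 the forward TTTCGCGC and the reverse GCGCCAAA overlap in one run, and in Mcm6 TTTGGCGC and GCGCGAAA do so. Cdc6 has a single E2F-type match and neither of the other motifs.

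Most of the 40 genes were measured well. A level below is the log2 signal of a gene's probe minus the 75th percentile of that array, so 0 marks the 75th percentile, and levels of different genes are not comparable because probes differ. A difference is one level minus another, with a technical SE computed from the error the scanner reports per spot, 0.20 in the median and up to 0.46, and holding no spread between mice or arrays. By the scanner's flag, 35 members were well above background on all 5 arrays, 20 mitotic and all 15 replication members. Bub1 was above it on 2 arrays, Nuf2 on 3, Kif11 and Cenpf on 1 each, and Aurkb on none. By measured signal, 16 of the 40 members differed 2-fold or more in at least 1 of the 8 comparisons (10 mitotic, 6 replication) and 24 in none, against 31.7% of all 15570 genes above background on at least 1 array. Where 1 array is below background, the difference is known only approximately. For Bub1 no bound reached 2-fold, which leaves 15 members.

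All 5 arrays lay on 1 slide, each with 62976 spots, of which 56.7% to 60.0% of probes were well above background. The PBS array alone lay in slide row 1, so slide row and injection cannot be told apart there, and the 4 comparisons share that 1 array. PBS and OVA+Alum shared slide column 4. Markers of neutrophils (9 of 10 on the array, all above background) had a mean level higher than on PBS by 1.69 in AEPS, 1.42 in OVA, 1.38 in OVA+AEPS and 2.15 in OVA+Alum, with summed linear levels of 1973 to 2384 against 1250 in PBS. Large peritoneal macrophage markers (10 of 10 above background) were lower by 0.68, 0.49, 0.48 and 1.37 in the same order, with sums of 533 to 990 against 1108 in PBS. B cell markers (10 of 10) were at -0.43, -0.37, -0.48 and -0.07 from PBS, with sums of 443 to 614 against 748. Granulocyte precursor markers, among which Fcnb was below background on all 5 arrays, had sums of 34.0 to 41.2 against 21.1 in PBS. In such mixed cells, fewer cells of a type and less RNA per cell cannot be told apart. Mast cell markers (10 on the array) had mean levels of 3.10 on AEPS, 3.13 on OVA, 3.05 on OVA+AEPS and 2.53 on OVA+Alum, against 2.22 on PBS, with sums of 501 to 616 against 331. Inflammatory monocyte markers (5 of 6 on the array) had mean levels of 3.66, 3.94, 3.58 and 3.30 in the same order, against 2.996 on PBS, with sums of 351 to 442 against 265. The part of these cell types in the results below was not tested.

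In comparison with PBS, both groups of genes mostly lay below 0, apart from a few members that were clearly higher. Below 0 also lay 55.4% to 62.2% of all genes, depending on the comparison. Mki67 was 4.05-fold higher after AEPS, 4.36-fold after OVA and 4.11-fold after OVA+AEPS, while E2f1 was 2.05-fold to 2.54-fold lower after all 4 injections. Among the 35 members above background everywhere, PBS was the highest array for 14 of 20 mitotic members (70%) and 11 of 15 replication members (73.3%), against 38% of all 13678 such genes. AEPS was the lowest array for 10 mitotic members (50%) and 6 replication members (40%), against 21.8% of all genes. This order depends on the scaling: with arrays scaled on their spike-in controls, PBS was highest for 8 of the 35 members, against 7.04% of all genes. On that scale 11 of 21, 11 of 23, 4 of 23 and 15 of 21 mitotic members lay below PBS in AEPS, OVA, OVA+AEPS and OVA+Alum. Of the 15 replication members, 7, 10, 10 and 8 did. The median of all genes was then 0.15 to 0.49 above PBS.

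**Figure D1:**
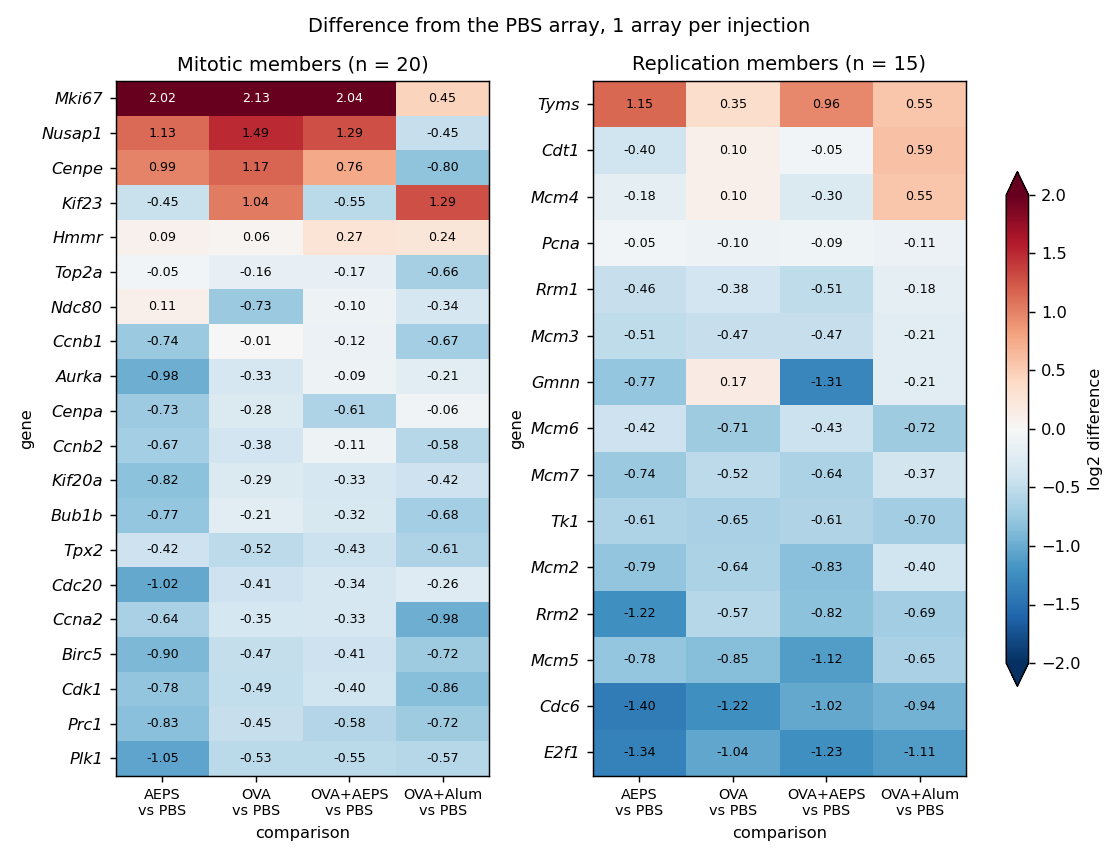
Log2 difference from the PBS array (colour and printed value) for the 20 mitotic and 15 replication members above background on all 5 arrays, in columns for AEPS, OVA, OVA+AEPS and OVA+Alum. Mki67 (2.02, 2.13, 2.04 and 0.45) heads the mitotic members, Tyms the replication members, and E2f1 (-1.34, -1.04, -1.23 and -1.11) and Cdc6 stand at the bottom.

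Mki67 encodes Ki-67, the coat protein of mitotic chromosomes used to mark dividing cells. Its level was 2.59 on AEPS, 2.69 on OVA, 2.61 on OVA+AEPS and 1.01 on OVA+Alum, against 0.57 on PBS. The arrays fell into 3 high ones, close to each other, and 2 low ones, OVA+Alum and PBS. The difference from PBS was 2.02 in AEPS, 2.13 in OVA, 2.04 in OVA+AEPS and 0.45 in OVA+Alum, each with a technical SE of 0.20. The second Mki67 probe gave 1.99, 2.11, 2.05 and 0.40, so both probes show the same split.

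Nusap1, which bundles spindle microtubules around chromosomes, had levels of -1.80 on AEPS, -1.44 on OVA, -1.64 on OVA+AEPS and -3.38 on OVA+Alum, against -2.93 on PBS. It shared the high and low arrays of Mki67. Its differences from PBS were 1.13, 1.49, 1.29 and -0.45 (technical SE 0.22 for the first 3), or 2.18-fold, 2.81-fold and 2.45-fold higher in AEPS, OVA and OVA+AEPS. After normexp correction with quantile normalization they were 0.64, 0.91 and 0.76, under 2-fold, while Mki67 kept 1.98, 2.05 and 1.96. Cenpe, the kinesin that links kinetochores to microtubules, had levels of -2.69 on AEPS, -2.51 on OVA, -2.92 on OVA+AEPS and -4.48 on OVA+Alum, against -3.68 on PBS. The 3 arrays without alum were again above PBS, by 0.99, 1.17 and 0.76, and of these only OVA passed 2-fold (0.52 after normexp, under 2-fold); OVA+Alum lay 0.80 below PBS.

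Kif23, the kinesin of the central spindle needed for cytokinesis, split the arrays another way. Its level was -2.23 on AEPS, -0.74 on OVA, -2.33 on OVA+AEPS and -0.49 on OVA+Alum, against -1.78 on PBS. Both arrays with AEPS lay below PBS and the OVA arrays without AEPS lay above it; with spike-in scaling AEPS moved above PBS, by 0.21. Kif23 was 2.05-fold higher in OVA than in PBS and 2.45-fold higher in OVA+Alum than in PBS, and it was 3.0-fold lower in OVA+AEPS than in OVA (difference -1.58, technical SE 0.21).

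**Figure D2:**
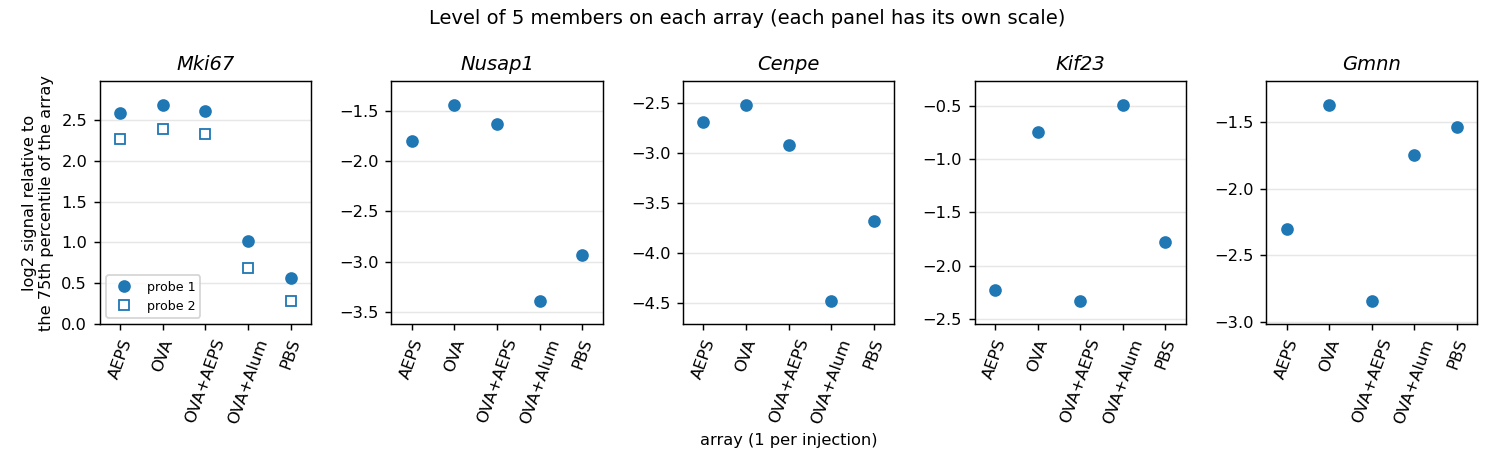
Level of Mki67 (2 probes), Nusap1, Cenpe, Kif23 and Gmnn on each array, as log2 signal relative to the 75th percentile of the array, 1 point per array and a separate scale per panel. Mki67, Nusap1 and Cenpe are lowest on OVA+Alum and PBS, Kif23 is highest on OVA and OVA+Alum, and Gmnn is lowest on OVA+AEPS.

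Of the genes tested across the array, 163 of 15570 (1.05%) were at least 2-fold lower on both column 4 arrays, PBS and OVA+Alum, than on each of the other 3, and 15 (0.0963%) were at least 2-fold higher. Mki67 and Nusap1 were the members among the 163, with no replication member. From the lists of related genes given further on, the kinesin Kif15, the condensin subunit Smc2 and Pola1, the catalytic subunit of DNA polymerase alpha, were also among them. The mean levels of the mast cell and inflammatory monocyte markers given above were also lowest on PBS and next lowest on OVA+Alum. The summed level of the mast cell markers did not follow this order, with 536 on OVA+Alum against 501 on OVA and 535 on OVA+AEPS. Eosinophil markers (4 of 5 above background) had mean levels of -1.55 on OVA+Alum and -1.46 on PBS. Their mean level was -1.26 on AEPS and on OVA and -1.22 on OVA+AEPS. The part of the shared slide column and of those cells in this split was not tested.

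Other mitotic regulators were lower after AEPS, where Mki67 was higher. Plk1, the Polo-like kinase of mitotic entry and exit, had levels of -0.31 on AEPS, 0.22 on OVA, 0.20 on OVA+AEPS and 0.18 on OVA+Alum, against 0.75 on PBS. Cdc20, the activator of the anaphase-promoting complex, had levels of 0.56 on AEPS, 1.16 on OVA, 1.23 on OVA+AEPS and 1.31 on OVA+Alum, against 1.58 on PBS. For both genes AEPS was the lowest array and PBS, on this scale, the highest, and they were 2.08-fold and 2.03-fold lower in AEPS than in PBS (differences -1.05 and -1.02, technical SE 0.20 each). With spike-in scaling these differences were -0.40 and -0.36, lower still but under 2-fold.

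Birc5, which encodes survivin of the chromosomal passenger complex, had levels of 1.71 on AEPS, 2.13 on OVA, 2.20 on OVA+AEPS and 1.89 on OVA+Alum, against 2.61 on PBS. Its brightest probe was 0.90 lower in AEPS than in PBS and the other probes 1.23 and 0.95 lower, so the 3 probes straddle the 2-fold line. Ccnb2, a B-type cyclin, had levels of 0.79 on AEPS, 1.09 on OVA, 1.36 on OVA+AEPS and 0.89 on OVA+Alum, against 1.46 on PBS. Like Birc5 it was lowest on AEPS and highest on PBS on this scale, and it did not reach 2-fold.

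Ccna2, Ccnb1, Ccnb2 and Cdk1, the cyclins of S phase and mitosis with their kinase, were below PBS in all 4 comparisons. Their differences spanned -0.78 to -0.64 in AEPS, -0.49 to -0.01 in OVA, -0.40 to -0.11 in OVA+AEPS and -0.98 to -0.58 in OVA+Alum, all under 2-fold; with spike-in scaling 3, 3, 0 and 4 of the 4 stayed below PBS. These are values of the brightest probe: the second Cdk1 probe, also above background on all 5 arrays, was at -1.11 in AEPS and 0.23 in OVA+AEPS from PBS. All 4 were higher in OVA+AEPS than in AEPS, by 0.31 to 0.61, and this direction did not depend on the scaling. Aurka, the kinase of spindle poles, was 0.98 lower in AEPS than in PBS and 0.33, 0.09 and 0.21 lower in OVA, OVA+AEPS and OVA+Alum, turning to 0.36 and 0.07 above PBS in OVA+AEPS and OVA+Alum with spike-in scaling. Prc1, which crosslinks the central spindle, the kinesin Kif20a, the checkpoint kinase Bub1b and the centromeric histone Cenpa were lower in AEPS than in PBS by 0.83, 0.82, 0.77 and 0.73. With spike-in scaling they were at -0.18, -0.16, -0.11 and -0.08 from PBS, each within 1 technical SE of 0. Top2a, the topoisomerase that untangles chromosomes, was at -0.05 from PBS in AEPS (0.60 with spike-in scaling) and -0.66 in OVA+Alum. Ndc80, of the outer kinetochore, was at 0.11 from PBS in AEPS, -0.73 in OVA, -0.10 in OVA+AEPS and -0.34 in OVA+Alum. Hmmr, a spindle-associated receptor of hyaluronan, varied least among the mitotic members, with levels of -2.04, -2.07, -1.87 and -1.89 after AEPS, OVA, OVA+AEPS and OVA+Alum, against -2.13 on PBS. Probes of the same gene did not always match: the second Tpx2 probe was 1.44 lower in OVA+AEPS than in PBS, against 0.43 for the brighter one.

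The remaining mitotic members were close to background and carry less information. Cenpf, a kinetochore protein, was above background only on OVA+AEPS, where it was at least 1.62-fold higher than on PBS, at least 1.67-fold higher than on AEPS, at least 1.75-fold higher than on OVA and at least 2.24-fold higher than on OVA+Alum. These are bounds, taken against the lowest signal of any probe that counts as above background on the other array. They are approximate, because a probe can exceed that signal and still not be flagged as above background. Nuf2, a subunit of the NDC80 complex, was above background on OVA, OVA+AEPS and PBS. On AEPS and OVA+Alum its signal exceeded that lowest signal without being flagged, so its folds are measured values and not bounds. It was 2.29-fold higher on OVA+AEPS than on AEPS, 3.15-fold higher on OVA+AEPS than on OVA+Alum, and 2.70-fold lower on OVA+Alum than on OVA. Bub1, a spindle checkpoint kinase, was above background on OVA and OVA+AEPS alone, at least 1.46-fold lower on OVA+Alum than on OVA and at least 1.59-fold higher on OVA+AEPS than on OVA+Alum. Kif11, the kinesin that separates spindle poles, was above background on OVA alone, with OVA+Alum at least 2.16-fold lower. Aurkb, the kinase of the passenger complex, was not well above background on any array.

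Among the replication members, the MCM genes encode the replicative helicase. Mcm5 had levels of 2.03 on AEPS, 1.96 on OVA, 1.68 on OVA+AEPS and 2.16 on OVA+Alum, against 2.81 on PBS, and was 2.18-fold lower in OVA+AEPS than in PBS (difference -1.12, technical SE 0.20). All 4 treated arrays lay below PBS for it. Mcm4 had levels of 3.79, 4.07, 3.68 and 4.52 after AEPS, OVA, OVA+AEPS and OVA+Alum, against 3.98 on PBS, with OVA+Alum the highest array. Mcm6 had levels of 3.81, 3.52, 3.80 and 3.51 in the same order, against 4.23 on PBS, with PBS the highest on this scale.

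Across Mcm2 to Mcm7, 6 of 6 genes were below PBS in AEPS (-0.79 to -0.18), 5 in OVA (-0.85 to 0.10), 6 in OVA+AEPS (-1.12 to -0.30) and 5 in OVA+Alum (-0.72 to 0.55). The exception in OVA and OVA+Alum was Mcm4. With spike-in scaling 3, 5, 4 and 4 of the 6 stayed below PBS, so the direction of the family after AEPS rests on the scaling.

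The loading factors of the helicase did not move as a block. Cdc6, which loads the helicase with Cdt1, had levels of -3.74 on AEPS, -3.57 on OVA, -3.37 on OVA+AEPS and -3.29 on OVA+Alum, against -2.34 on PBS. All 4 treated arrays lay below PBS, 2.63-fold in AEPS, 2.34-fold in OVA and 2.03-fold in OVA+AEPS, and by 0.94 on the log2 scale in OVA+Alum. None of these 3 calls held under spike-in scaling, which put AEPS, OVA and OVA+AEPS at -0.74, -0.93 and -0.57 from PBS, or after normexp, which put them at -0.63, -0.51 and -0.47. Its dimmer second probe was above background only on OVA+Alum and PBS and differed by -0.16 there. Cdt1 had levels of 3.92 on AEPS, 4.42 on OVA, 4.27 on OVA+AEPS and 4.91 on OVA+Alum, against 4.32 on PBS; it was highest on OVA+Alum and did not reach 2-fold against PBS. Gmnn encodes geminin, the inhibitor of Cdt1 outside G1. Gmnn had levels of -2.31 on AEPS, -1.37 on OVA, -2.84 on OVA+AEPS and -1.75 on OVA+Alum, against -1.53 on PBS. The arrays with AEPS were the lowest, and Gmnn was 2.48-fold lower in OVA+AEPS than in PBS and 2.78-fold lower in OVA+AEPS than in OVA (difference -1.48, technical SE 0.22). After normexp these differences were -0.82 and -0.96, and that of OVA+AEPS from OVA+Alum was -0.72, all under 2-fold.

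E2f1, the transcription factor that activates replication genes, had levels of -0.78 on AEPS, -0.47 on OVA, -0.66 on OVA+AEPS and -0.55 on OVA+Alum, against 0.56 on PBS. PBS stood above the other 4 arrays, which lay close together. The differences from PBS were -1.34, -1.04, -1.23 and -1.11, each with a technical SE of 0.20, and -0.69, -0.75, -0.77 and -0.83 with spike-in scaling, where none passes 2-fold. E2f1 was the member called in all 4 comparisons with PBS.

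The enzymes that supply nucleotides split. Rrm2, the S phase subunit of ribonucleotide reductase, had levels of 0.34 on AEPS, 0.99 on OVA, 0.73 on OVA+AEPS and 0.87 on OVA+Alum, against 1.56 on PBS, and was 2.33-fold lower in AEPS than in PBS. Tyms, the thymidylate synthase, had levels of -0.38 on AEPS, -1.18 on OVA, -0.57 on OVA+AEPS and -0.98 on OVA+Alum, against -1.53 on PBS. PBS was the highest array for Rrm2 and the lowest for Tyms, which was 2.22-fold higher in AEPS than in PBS (difference 1.15, technical SE 0.21, and 0.88 after normexp, under 2-fold). Tk1, the thymidine kinase, was lower than on PBS by 0.61, 0.65, 0.61 and 0.70, and Rrm1 by 0.46, 0.38, 0.51 and 0.18, in AEPS, OVA, OVA+AEPS and OVA+Alum; with spike-in scaling both turned above PBS in AEPS, by 0.04 and 0.20, and Rrm1 also in OVA+Alum, by 0.10. Pcna, the sliding clamp, had levels of 5.19, 5.15, 5.16 and 5.13 in that order, against 5.25 on PBS. Its range of 0.11 over the 5 arrays was the smallest among the members.

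**Figure D3:**
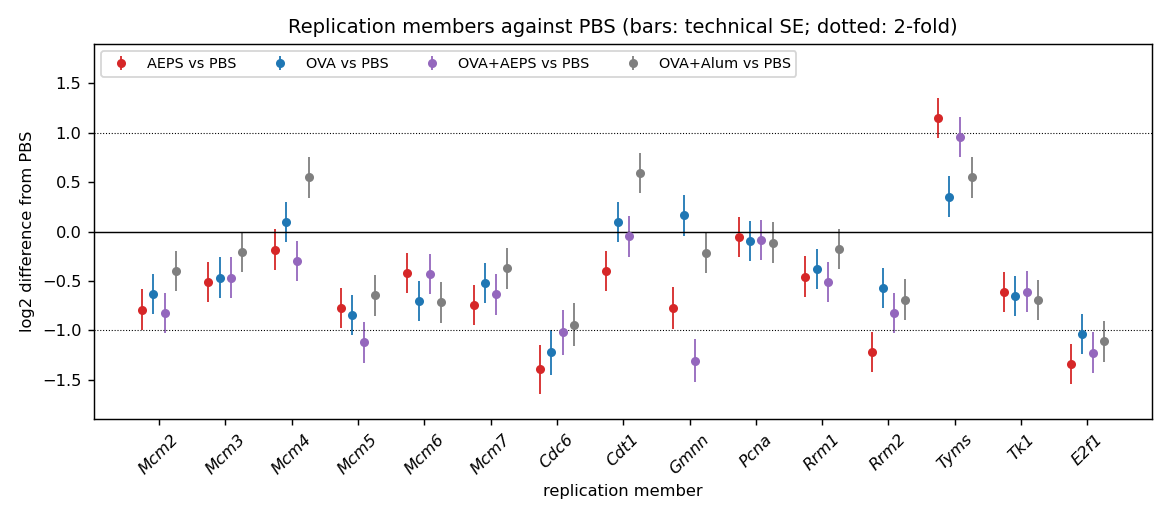
Log2 difference of each replication member from PBS, 1 point per treated array in the order AEPS, OVA, OVA+AEPS and OVA+Alum, with bars for the technical SE and dotted lines at 2-fold. Tyms lies above 0 in all 4 comparisons, Cdc6 and E2f1 lie near or below the lower line, and Pcna stays between -0.11 and -0.05.

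Counted over the members, AEPS differed from PBS at least 2-fold in 8 of 36 members that entered the comparison, against 15.6% of all genes. Mki67 and Nusap1 (mitotic) and Tyms (replication) were higher, where 8.7% of all genes were, and Plk1, Cdc20, Rrm2, E2f1 and Cdc6 were lower, where 6.89% were. The median difference was -0.67 for 21 mitotic and -0.61 for 15 replication members, against -0.17 for all genes. Below PBS by any amount were 16 of 21 mitotic and 14 of 15 replication members, against 62% of all genes. With spike-in scaling the median of all genes moved up by 0.66. On that scale 4 members were 2-fold higher and none lower, against 3284 and 303 of all 14936 genes. The replication median changed sign to 0.04 while the mitotic median was -0.02. Relative to the median of all genes, which a scaling moves along with the members, the medians were -0.51 and -0.45.

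OVA against PBS gave 6 of 38 members at 2-fold, against 10.8% of all genes. Mki67, Nusap1, Cenpe and Kif23 were higher (6.67% of all genes were), and E2f1 and Cdc6 were lower (4.08%). The mitotic median was -0.28 and the replication median -0.52, against -0.14 for all genes. Below PBS were 15 of 23 mitotic and 11 of 15 replication members, against 62.2% of all genes. With spike-in scaling 6 members were higher and none lower, against 1595 and 330 of all 15041 genes, and the mitotic median turned to 0.01. After normexp Mki67 alone passed 2-fold, against 4.24% of all genes.

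OVA+AEPS against PBS gave 7 of 38 members, against 14.5% of all genes. Mki67, Nusap1 and Cenpf, whose bound is 1.62-fold, were higher (8.3% of all genes were), and E2f1, Cdc6, Gmnn and Mcm5 were lower (6.18%). The mitotic median, -0.17, lay at that of all genes, -0.15, whereas the replication median was -0.61, with 14 of 15 members below PBS against 61% of all genes. With spike-in scaling 7 members were higher and none lower, against 2457 and 371 of all 14996 genes. The differences of Gmnn and Mcm5 were then -0.85 and -0.67. On that scale the medians were 0.29 for mitotic and -0.15 for replication members, and that of all genes was 0.30.

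OVA+Alum against PBS gave 2 of 36 members, Kif23 higher (6.46% of all genes were) and E2f1 lower (5.15%), against 11.6% of all genes in either direction. The medians were -0.58 for 21 mitotic and -0.37 for 15 replication members, against -0.06 for all genes. Below PBS were 18 mitotic and 12 replication members, against 55.4% of all genes. With spike-in scaling the medians were -0.29 and -0.09, with 15 mitotic and 8 replication members below PBS, and after normexp the mitotic median was -0.21.

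Between the 2 adjuvants given with OVA, the mitotic members stood higher with AEPS. By measured signal OVA+AEPS differed 2-fold or more from OVA+Alum in 8 of 38 members, against 13.2% of all genes, and in 7 when Bub1, with a bound of 1.59-fold, is set aside. Mki67, Nusap1, Cenpe, Bub1, Cenpf and Nuf2 were higher (6.76% of all genes were), and Kif23 and Gmnn were lower (6.44%). Mki67 was 3.02-fold, Nusap1 3.36-fold and Cenpe 2.96-fold higher, and Kif23 was 3.58-fold lower. After normexp their differences were 1.62, 0.94, 0.44 and -1.30 in that order, with Nusap1 and Cenpe under 2-fold. Of 23 mitotic members 20 were above OVA+Alum and 3 below, where 45.6% of all genes were above. The mitotic median was 0.36 against -0.06 for all genes, and the replication median was -0.26. Bub1, Cenpf and Nuf2 were below background on OVA+Alum and entered only through OVA+AEPS, which favours the higher direction. Requiring both arrays above background left 3 higher and 2 lower calls among 35 members, against 10.9% of all genes in either direction. The mitotic median was then 0.27, against -0.05 for all genes.

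OVA+Alum differed from OVA in 6 of 38 members, against 9.59% of all genes, and all 6 were mitotic and lower, Bub1 with a bound of 1.46-fold (5.44% of all genes were lower and 4.15% higher). Mki67 was 3.20-fold lower (difference -1.68, technical SE 0.20), Nusap1 3.85-fold and Cenpe 3.92-fold. The bounds for Bub1 and Kif11 and the measured fold of Nuf2 are given above. After normexp the differences of Mki67, Nusap1 and Cenpe were -1.71, -1.10 and -0.65, the last under 2-fold. Bub1, Kif11 and Nuf2 were below background on OVA+Alum and entered only through OVA, which favours the lower direction. Requiring both arrays above background left 3 lower calls and none higher among 35 members, against 6.79% of all genes in either direction. The mitotic median was then -0.22. The median was -0.26 for 23 mitotic and 0.20 for 15 replication members, against 0.08 for all genes. Both arrays lay in slide row 2 and in different columns.

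AEPS added to OVA, or OVA added to AEPS, left most members within 2-fold. By measured signal OVA+AEPS differed from OVA in 3 of 39 members, Cenpf higher with a bound of 1.75-fold (4.08% of all genes were) and Kif23 and Gmnn lower (3.64%), against 7.72% in either direction. It differed from AEPS in 2 of 38, the dim genes Cenpf, with a bound of 1.67-fold, and Nuf2, both higher (2.06% of all genes were, and 1.88% lower), against 3.94% in either direction. Cenpf and Nuf2 were below background on AEPS and entered that comparison only through OVA+AEPS. Of 23 mitotic members 18 were higher in OVA+AEPS than in AEPS, with a median of 0.31 against 0.00 for all genes and 50.8% of all genes higher; with spike-in scaling 13 of 23 were higher. The replication median there was -0.01.

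**Figure D4:**
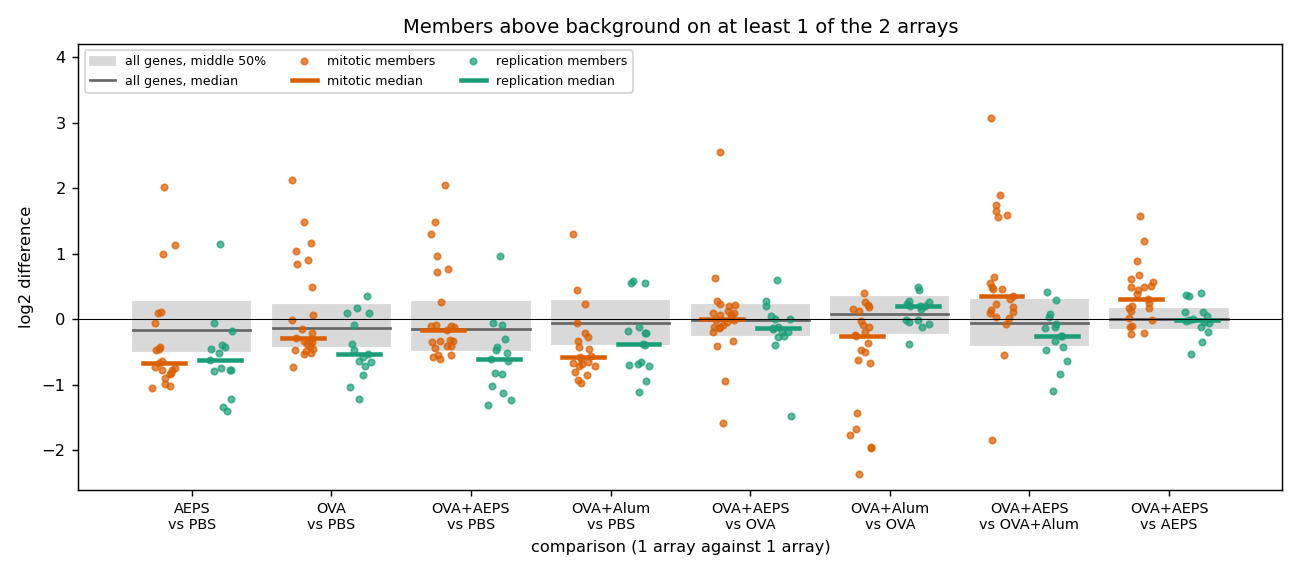
Log2 difference of each member above background on at least 1 of the 2 arrays, by comparison (first-named array minus second), with thick lines for the median of the mitotic and replication members, and grey boxes and lines for the middle 50% and the median of all genes. Replication medians lie below the line of all genes in the 4 comparisons with PBS (-0.61, -0.52, -0.61 and -0.37), and mitotic members lie above it in OVA+AEPS against OVA+Alum (0.36) and AEPS (0.31).

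Related genes outside the 40 were described from lists of the same pathways. Of 79 other mitotic genes, 70 entered AEPS against PBS, where 5 were higher and 13 lower by 2-fold or more (8.7% and 6.89% of all genes), around a median of -0.43. Of 66 other replication genes, 64 entered, with 6 higher, 8 lower and a median of -0.37, against -0.17 for all genes. In OVA against PBS the same lists had 3 higher, 5 lower and a median of -0.31 (mitotic), and 2 higher, 3 lower and a median of -0.26 (replication), where 6.67% of all genes were higher and 4.08% lower. In OVA+AEPS against PBS they had 6 higher, 4 lower and -0.31, and 6 higher, 4 lower and -0.35, against 8.3% and 6.18% of all genes. In OVA+Alum against PBS they had 2 higher, 5 lower and -0.50 over 67 mitotic genes, and 1 higher, 4 lower and -0.28 over 64 replication genes, against 6.46% and 5.15% of all genes. Among 69 other mitotic genes, OVA+AEPS against OVA+Alum had 8 higher and 2 lower (6.76% and 6.44% of all genes). OVA+Alum against OVA, which shares the OVA+Alum array, had 1 higher and 9 lower (4.15% and 5.44% of all genes). Espl1, the protease separase that cuts cohesin, had the largest difference from PBS of the other mitotic genes above background on all 5 arrays, at -2.70 in AEPS, -2.29 in OVA, -2.08 in OVA+AEPS and -2.11 in OVA+Alum from PBS. The checkpoint kinase gene Chek1 was 2.76 higher in AEPS than in PBS and within 0.43 of PBS on the other arrays, so 1 array sets that value. Uhrf1, which reads half-methylated DNA behind the fork, was lower on the log2 scale, with differences of -1.497, -1.07, -1.04 and -0.85.

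The G1 regulators (37 genes, 36 measured) had a median of -0.17 in AEPS against PBS, equal to that of all genes, with 3 genes higher and 4 lower. Among them Ccnd1 and Gadd45b lay further from PBS than any member. Ccnd1, the cyclin D1 gene of G1 entry, had levels of -0.72 on AEPS, -0.17 on OVA, -0.97 on OVA+AEPS and -0.75 on OVA+Alum, against 2.15 on PBS, with every treated array below PBS, by differences of -2.87, -2.32, -3.12 and -2.90. Gadd45b, a stress-induced growth arrest gene, was higher than on PBS by 2.42, 1.46, 2.15 and 1.33 in AEPS, OVA, OVA+AEPS and OVA+Alum. Myc, a driver of growth, was higher by 1.27 in AEPS and 1.57 in OVA+AEPS, with -0.05 in OVA and 0.56 in OVA+Alum.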

How the data were processed

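Cy3-labelled RNA was hybridised to 1 Agilent array (design Agilent-028005) per injection. The deposited scanner files hold linear intensity, background-subtracted and detrended by the authors with Agilent Feature Extraction 10.7.1.1, per the file headers. Flags per spot in the deposited files are other values of 0 or 1. The deposited series table holds log2 values that the authors had quantile-normalized, as the values show.

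Control spots (3671) and 134 to 219 outlier spots per array were left out. From the log2 processed signal, each array's own 75th percentile was taken off, and spots of a probe were averaged. Probes were named through RefSeq transcripts of GRCm38.p6 (26582 probes named, 29099 not), and the brightest probe stood for a gene. A gene entered a comparison if well above background on at least 1 of 2 arrays and was called at 2-fold. With 1 array per group there was no test, and the number of arrays limits the precision. Motifs were searched in RefSeq promoters. The members and lists were chosen with earlier results of these data known. Values on every array are given for members called in a comparison and above background on all 5 arrays. They are also given for the 4 brightest of each group of members and for a few others described by range. For Bub1, Kif11, Cenpf and Nuf2, called but not above background on every array, only folds or bounds are given. From each related list the 4 genes with the largest difference from PBS were taken, among those above background on all 5 arrays. Of these, Lmnb1, Kif20b, Kif18b, Dck, Rfc3 and Gadd45a are not described above. Alternatives were normexp (offset 50) with quantile normalization, median scaling, spike-in scaling, the authors' table, the median over probes, other filters on dim probes and a 1.5-fold threshold. Python 3.11.15, pandas 2.3.3, R 4.3.3 and limma 3.58.1 were used. The call rule was tested on simulated data.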

Additional observations from a re-analysis of the deposited data

Results flagged for a closer look

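The mitotic members Cdc20, Plk1 and Birc5 had opposite differences for OVA without and with AEPS, each larger than 2 technical SE; the contrast itself was not tested, since each group is 1 array. For Cdc20, OVA minus PBS was -0.41 and OVA+AEPS minus AEPS was 0.68, a gap of -1.09. For Plk1 the values were -0.53 and 0.51, a gap of -1.04, and for Birc5 they were -0.47 and 0.49, a gap of -0.96. The Birc5 values are those of its brightest probe. Its other probes gave -0.66 and 0.63, and -0.77 and 0.13, so the last did not show a clear rise. All 3 genes were lowest on AEPS and highest on PBS with 75th percentile scaling. With spike-in scaling the pairs of values were -0.12 and 0.48 for Cdc20, -0.24 and 0.31 for Plk1 and -0.18 and 0.29 for Birc5. The gaps were then -0.60, -0.55 and -0.47, and OVA minus PBS was within 2 technical SE of 0 for all 3 genes. OVA+AEPS minus AEPS was also within 2 technical SE of 0 for Plk1 and Birc5, but not for Cdc20.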

How the results depend on the processing

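No paired analysis was possible because each injection has 1 array and no replicate number. The medians of members relative to all genes cannot move under median or spike-in scaling; under the other settings they moved by less than the technical SE of 1 gene's difference, about 0.20, in 78 of 80 checks. The exceptions, both under normexp with quantile normalization, were the mitotic median in OVA+Alum against PBS (-0.19, main value -0.51) and in OVA+AEPS against OVA+Alum (0.18, main value 0.42). Counts of members at 2-fold stayed within 1.5 times in 42 of 64 checks. Under normexp, whose offset compresses dim probes, they were 3 (AEPS), 1 (OVA), 2 (OVA+AEPS) and 1 (OVA+Alum) against PBS, 1 in OVA+AEPS and 2 in OVA+Alum against OVA, 2 in OVA+AEPS against OVA+Alum and 0 in OVA+AEPS against AEPS. The shares of all genes were 7.53%, 4.24%, 7.25% and 5.16% against PBS, and 3.18%, 3.34%, 6.35% and 1.25% for the others in that order. At a 1.5-fold threshold the counts were 24 of 36, 13 of 38, 16 of 38 and 18 of 36 against PBS. The shares of all genes there were 34.6%, 26.8%, 33.8% and 27.6%. The count was 6 of 39 in OVA+AEPS against OVA (17.4% of all genes) and 5 of 38 in OVA+AEPS against AEPS (8.37%). Against PBS, Mki67 in AEPS, OVA and OVA+AEPS was the higher call that normexp kept, and spike-in scaling kept no lower call in any of the 4. Spike-in scaling gave 4 in AEPS and 1 in OVA+Alum against PBS (24% and 13.4% of all genes), and 1 in OVA+AEPS against AEPS (4.24%). Median scaling gave 1 and no filter 4 in OVA+Alum against PBS (11.9% and 12.4% of all genes). Requiring signal on both arrays left 3 in OVA+Alum against OVA (6.79% of all genes), 5 in OVA+AEPS against OVA+Alum (10.9%) and 0 in OVA+AEPS against AEPS (1.44%). Where no construction of the alternative shows the cause, the cause was not tested. None of the called differences changed sign under these settings. Of genes called in AEPS against PBS, 55.8% were higher, 68.8% under normexp and 91.6% under spike-in scaling. In the other comparisons with PBS the share was 62% in OVA (80.5% under normexp, 82.9% under spike-in scaling), 57.3% in OVA+AEPS (68.5% and 86.9%) and 55.7% in OVA+Alum (65.9% and 78.2%). Mki67 exceeded PBS by 1.98 to 2.68 in AEPS over the settings. The count of members highest on PBS, an alternative added after seeing the data, was 25 of 35, and 24 under normexp, 21 under median scaling, 24 in the authors' table and 8 under spike-in scaling. The shares of all genes in the same order were 38%, 35.5%, 28.7%, 35.7% and 7.04%.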
